A study of Mus musculus with 52 samples.

Results

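Calibrated ATAC-seq was used to follow the promoters of 6 genes, Tor4a, Bcl6b, Cd80, Lhb, Evl and AI197445, in mouse embryonic stem cells (mESCs) before and after conditional loss of KDM2 protein domains. These genes were chosen because each had a promoter that was higher, relative to other promoters, after tamoxifen in the Kdm2a/b-CXXC line. At a limma adjusted p under 0.05 and over 1.4-fold in that line, they held the 6 higher promoters of 16413 tested (0.0366%). They account for 8 of the 20633 promoter intervals measured, because Evl has 3. The chosen promoters are the 6 intervals that met the rule, and for Evl that is the middle one. Accessibility in the Kdm2a/b-CXXC line chose these promoters, so their rise there is given as a description, while the 3 other lines, the other Evl promoters, the neighbouring promoters and the DNA sequence were not used in the choice.

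The 4 lines carry floxed alleles and a CRE recombinase that tamoxifen activates, and each was compared untreated and after 96 h in 800 nM 4-hydroxytamoxifen. In Kdm2a/b-JmjCfl/fl cells, which were derived from mice with CreErt2 at ROSA26, treatment removes the exons of the demethylase domain and so the long forms of KDM2A and KDM2B, and short forms that hold the ZF-CxxC domain remain. In Kdm2a-CXXCfl/fl, Kdm2b-CXXCfl/fl and Kdm2a/b-CXXCfl/fl cells treatment removes the ZF-CxxC domain of KDM2A, of KDM2B or of both. The Kdm2a-CXXC and Kdm2a/b-CXXC lines were made by genome editing and clone isolation, the first in Rosa26::CreERT2 cells and the second in Kdm2b-CXXCfl/fl cells, so the double line and the Kdm2b-CXXC line share their Kdm2b allele. There were 3 untreated and 3 treated ATAC libraries in each line, except for 4 and 4 in Kdm2a/b-CXXC. Treated cells without floxed alleles were not analysed here, so within a line an effect of the drug or of CRE and the loss of the domain cannot be told apart. The study's methods call the libraries of a group biological replicates without saying what separated them, and p-values measure the spread between these libraries. The intervals lie at promoters, outside the deleted exons, and do not check the deletion.

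KDM2A and KDM2B are F-box proteins that bind DNA through a ZF-CxxC zinc finger, which recognises non-methylated CpG dinucleotides and so brings them to CpG islands. Their JmjC domain removes methyl groups from histone H3, and KDM2B also recruits a variant Polycomb repressive complex. ATAC-seq reads how open a DNA stretch is to the Tn5 transposase, and an active or poised promoter is usually open. Values are given in reads per 1000000 promoter reads (rpm), so a value states how much of a library's promoter signal fell in a 400 bp interval centred on a transcription start site. A value of 1 read was worth 0.331 to 0.672 rpm, since libraries held 1.49 to 3.03 M promoter reads (M, 1000000).

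The genes have different roles. Tor4a encodes a torsin-family AAA+ ATPase, Bcl6b a BTB zinc-finger repressor related to BCL6, Cd80 the B7-1 ligand of the T cell receptors CD28 and CTLA4, Lhb the beta subunit of luteinizing hormone, and Evl an Ena/VASP regulator of actin filaments. AI197445 is a long non-coding RNA gene. What the chosen promoters had in common in the GRCm38 genome was few CpG dinucleotides. They held 3 to 16 CpG in 400 bp, with a median of 6 against 24 over 20630 intervals, and all 6 were below that value. With CpG-rich defined by a GC content of 0.5 or more and 0.6 or more of the CpG that base content predicts, none of the 6 was CpG-rich, against 54.6% of all intervals. Their GC content ran from 48.3% at Cd80 to 60.5% at Tor4a, close to the 60.3% median of all intervals at its upper end. The Evl upstream promoter, which the rule did not choose, was the exception among the 8 intervals at 52 CpG and 74.3% GC.

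The contrast is visible in the DNA. Sequences before the start site are given for the chosen promoters of Tor4a, Cd80, Evl and AI197445 and, for comparison, for the CpG-rich Evl promoter, from RefSeq on GRCm38.p6, 5′ to 3′ on the gene's strand, with each CpG in capitals. Tor4a is on the minus strand of chromosome 2, at chr2:25196814-25197013, and the others are on the plus strand at chr16:38458733-38458932, chr12:108605566-108605765, chr13:107469622-107469821 and chr12:108554520-108554680.
Tor4a: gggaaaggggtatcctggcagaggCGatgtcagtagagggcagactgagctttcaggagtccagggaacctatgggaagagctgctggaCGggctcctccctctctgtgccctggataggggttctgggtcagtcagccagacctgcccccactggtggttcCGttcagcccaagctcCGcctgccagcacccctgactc
Cd80: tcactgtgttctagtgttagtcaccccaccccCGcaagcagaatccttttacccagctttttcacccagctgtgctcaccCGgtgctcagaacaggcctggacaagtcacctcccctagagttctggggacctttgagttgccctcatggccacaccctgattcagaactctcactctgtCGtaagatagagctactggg
Evl middle: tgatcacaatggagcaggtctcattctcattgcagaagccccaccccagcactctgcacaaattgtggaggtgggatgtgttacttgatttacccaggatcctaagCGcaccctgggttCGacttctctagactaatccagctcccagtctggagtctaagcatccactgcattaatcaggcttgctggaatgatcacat
AI197445: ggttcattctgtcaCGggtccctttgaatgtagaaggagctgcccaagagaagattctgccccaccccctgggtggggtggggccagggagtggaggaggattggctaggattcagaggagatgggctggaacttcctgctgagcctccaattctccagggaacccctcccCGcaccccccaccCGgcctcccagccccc
Evl upstream: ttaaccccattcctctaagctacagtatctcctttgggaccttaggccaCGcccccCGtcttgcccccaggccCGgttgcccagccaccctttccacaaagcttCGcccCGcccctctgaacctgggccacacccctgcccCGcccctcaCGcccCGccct
In these 200 bases there were 4 CpG before Tor4a, 3 before Cd80, 2 before the middle Evl start and 3 before AI197445, while the 161 bases before the first exon of the Evl upstream promoter held 8.

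Each chosen interval was centred on an annotated RefSeq start and so held the first exon or its beginning with the DNA before it. The Bcl6b interval was on chromosome 11 from 70229599 to 70229998 and the Lhb interval on chromosome 7 from 45420746 to 45421145. The Lhb interval also lay wholly within an exon of 1 longer predicted Lhb transcript, overlapped the end of an exon of another and took in the first coding bases of the gene, and that of Cd80 crossed an intron of longer predicted Cd80 transcripts. The middle Evl promoter starts a shorter transcript within an intron of the curated transcripts from the upstream promoter. CCAAT, searched on both strands, was in 6 of 6 chosen intervals, against 40.0% of all intervals and 42.8% of those that were not CpG-rich. TATAAA was in 2 of them, Cd80 and Lhb, against 10.4% of all intervals, and GGGCGG only in that of Bcl6b, with 3 matches, against 56.3% of all. TGACTCA was found at Tor4a alone (5.00% of all intervals), and 3 other motifs were in none of the 6. These were the ETS motif CCGGAA (23.5% of all intervals), the E-box CACGTG (9.54%) and the cAMP response element TGACGTCA (2.56%). A match is a run of letters and not a measured binding site.

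In untreated cells the chosen promoters were of low to middling accessibility. Their mean untreated level in Kdm2a/b-CXXC cells lay between the 25.9th percentile of promoters for Lhb and the 55.7th for Tor4a, with a median of 34.4. The labelled cell type was checked on promoters of 8 pluripotency genes (Pou5f1, Nanog, Sox2, Klf4, Esrrb, Zfp42, Tfcp2l1 and Dppa4), whose 9 promoters sat at a median percentile of 68.3 in untreated Kdm2a/b-CXXC cells and ranged from 19.0 to 87.7. Their median was 43.8 in untreated Kdm2a/b-JmjC cells, 57.6 in Kdm2a-CXXC and 62.5 in Kdm2b-CXXC. Promoters of 6 lineage genes (Gata4, Gata6, Sox17, T, Cdx2 and Neurog2) had medians of 44.9 in Kdm2a/b-CXXC and 48.7, 41.3 and 44.1 in those lines. In untreated Kdm2a/b-JmjC cells the pluripotency median was thus the lower one, but that set ran from the 18.5th to the 93.1st percentile. The lineage set ran from 35.3 to 55.3. Tfcp2l1, Zfp42, Klf4 and Sox2, at 85.5 to 121 rpm, were above every lineage promoter there, the highest being Gata6 at 46.4 rpm. The remaining pluripotency promoters were at 5.72 to 30.6 rpm.

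In Kdm2a/b-CXXC cells Tor4a was the most open of the chosen promoters and the one with the tightest replicates. Its level in untreated Kdm2a/b-CXXC libraries was 55.8, 43.9, 53.9 and 43.1 rpm, and in treated ones 84.0, 83.5, 74.9 and 80.4 rpm. All treated libraries were well above all untreated libraries, with means of 80.7 ± 4.18 and 49.2 ± 6.58 rpm (SD, n = 4 each), a 1.64-fold difference. No library of another line reached the treated mean, the highest of those 18 being at 78.4 rpm. In Kdm2a-CXXC cells the level was 68.2, 66.1 and 73.1 rpm untreated and 78.4, 74.0 and 74.2 rpm treated. These groups did not overlap, but the difference was small, a log2 fold change of 0.13 (95% confidence interval −0.13 to 0.38). In Kdm2b-CXXC cells the untreated libraries were spread widely, at 38.2, 66.9 and 63.5 rpm, around treated values of 70.2, 71.6 and 53.9 rpm, and in Kdm2a/b-JmjC cells treated values of 46.6, 53.8 and 38.6 rpm lay around and below untreated ones of 51.8, 52.6 and 49.5 rpm. The log2 fold changes were 0.24 (−0.03 to 0.52) and −0.16 (−0.52 to 0.21).

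Cd80, whose product on antigen-presenting cells costimulates T cells, was among the less open promoters. In untreated Kdm2a/b-CXXC libraries it was at 10.8, 15.3, 8.38 and 11.9 rpm, and in treated ones at 29.9, 19.2, 34.5 and 20.6 rpm. The groups did not overlap, though treated libraries fell into a higher and a lower pair, and the means were 26.04 ± 7.37 against 11.6 ± 2.87 rpm (SD, n = 4 each). Its treated mean was higher in all 4 lines, as it was for Bcl6b, Lhb and, by only 1.01-fold in Kdm2a-CXXC, AI197445. Outside Kdm2a/b-CXXC the treated mean of Cd80 was 1.29 to 1.57 times the untreated mean. In Kdm2a-CXXC cells Cd80 was at 22.4, 17.5 and 23.8 rpm untreated and 28.3, 27.5 and 28.4 rpm treated. In Kdm2b-CXXC cells it was at 8.19, 9.33 and 9.55 rpm untreated and 13.1, 11.4 and 10.5 rpm treated. In both of these lines every treated library was above every untreated one. In Kdm2a/b-JmjC cells 13.1, 8.61 and 16.8 rpm untreated met 17.0, 27.9 and 15.7 rpm treated, which overlapped at a single pair of libraries. The log2 fold changes outside the line that chose it were 0.64 ± 0.32 in Kdm2a/b-JmjC, 0.40 ± 0.22 in Kdm2a-CXXC and 0.35 ± 0.33 in Kdm2b-CXXC (SE), with limma adjusted p of 0.876, 0.823 and 0.858, so none passed. The readings rest on 14 to 59 reads per library in all lines.

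Lhb, a hormone gene of pituitary gonadotrophs, had the largest relative rise and the fewest reads. It went from 8.06, 9.55, 5.99 and 13.9 rpm to 24.9, 22.8, 19.5 and 19.9 rpm in Kdm2a/b-CXXC cells, which is 10 to 21 reads untreated and 30 to 45 treated. Counting error alone was 26.3% of the untreated level per library, against 11.4% at Tor4a. The groups did not overlap, at 21.8 ± 2.51 against 9.38 ± 3.36 rpm (SD, n = 4 each), and all 18 libraries of the other lines were below the lowest treated one. In Kdm2a-CXXC cells, at 5.84, 5.62 and 4.44 rpm untreated and 6.45, 6.64 and 7.64 rpm treated, the groups did not overlap either, but at 11 to 17 reads per library the log2 fold change of 0.36 had an interval of −0.47 to 1.18. In the other lines the treated libraries disagreed among themselves. They gave 14.0, 16.4 and 6.20 rpm in Kdm2b-CXXC cells, where untreated ones gave 8.19, 8.11 and 13.7 rpm. They gave 2.52, 12.1 and 12.4 rpm in Kdm2a/b-JmjC cells, where untreated ones gave 5.00, 4.30 and 9.19 rpm. Chromosome 7 as a whole took 8.26% of promoter reads in untreated and 8.30% in treated Kdm2a/b-CXXC cells. In the other lines it took 7.05% to 7.74%, so its share differed between lines and hardly between treatments. The 32 other promoters within 250 kb of Lhb summed to a mean of 1985 rpm in untreated Kdm2a/b-CXXC cells. Their untreated means were 1323 rpm in Kdm2a/b-JmjC, 1271 in Kdm2a-CXXC and 1654 in Kdm2b-CXXC, so the region was higher in the double line before treatment. Its part in the standing of treated Lhb above the other lines was not tested.

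AI197445 lay at 12.1, 21.7, 20.4 and 20.6 rpm in untreated and 35.9, 36.9, 36.5 and 29.6 rpm in treated Kdm2a/b-CXXC cells. The groups were well apart (34.7 ± 3.44 against 18.7 ± 4.42 rpm, SD, n = 4 each). In Kdm2a-CXXC cells the promoter was already at that treated level without treatment, at 39.9, 33.1 and 37.6 rpm untreated and 40.2, 34.6 and 36.5 rpm treated, and the log2 fold change was 0.01 (−0.34 to 0.37). In Kdm2a/b-JmjC cells it was at 25.6, 22.5 and 16.8 rpm untreated and 25.8, 27.4 and 30.8 rpm treated, and in Kdm2b-CXXC cells at 19.1, 16.2 and 19.9 rpm untreated and 20.1, 17.9 and 26.7 rpm treated. The first pair of groups just missed touching and the second overlapped, with log2 fold changes of 0.38 (−0.12 to 0.88) and 0.21 (−0.26 to 0.68).

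In Kdm2a/b-CXXC cells Bcl6b was the most variable of the 6. Its untreated libraries were at 42.3, 25.5, 19.2 and 20.6 rpm and the treated ones at 43.7, 37.4, 70.4 and 39.3 rpm. One untreated library lay among the treated values and 1 treated library far above the rest, and the means of 47.7 ± 15.3 and 26.9 ± 10.7 rpm (SD, n = 4 each) came from overlapping groups. Kdm2a-CXXC cells had the lowest levels of this promoter, at 13.9, 20.8 and 9.70 rpm untreated and 18.4, 13.3 and 17.5 rpm treated. Kdm2b-CXXC cells had 26.1, 32.9 and 34.9 rpm untreated against 33.1, 41.8 and 37.6 rpm treated, and Kdm2a/b-JmjC cells had 35.0, 31.6 and 24.5 rpm against 37.2, 35.3 and 28.1 rpm. All 3 pairs of groups overlapped, and the log2 fold changes were 0.19 ± 0.28, 0.26 ± 0.18 and 0.15 ± 0.22 (SE) in that order.

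**Figure D1:**
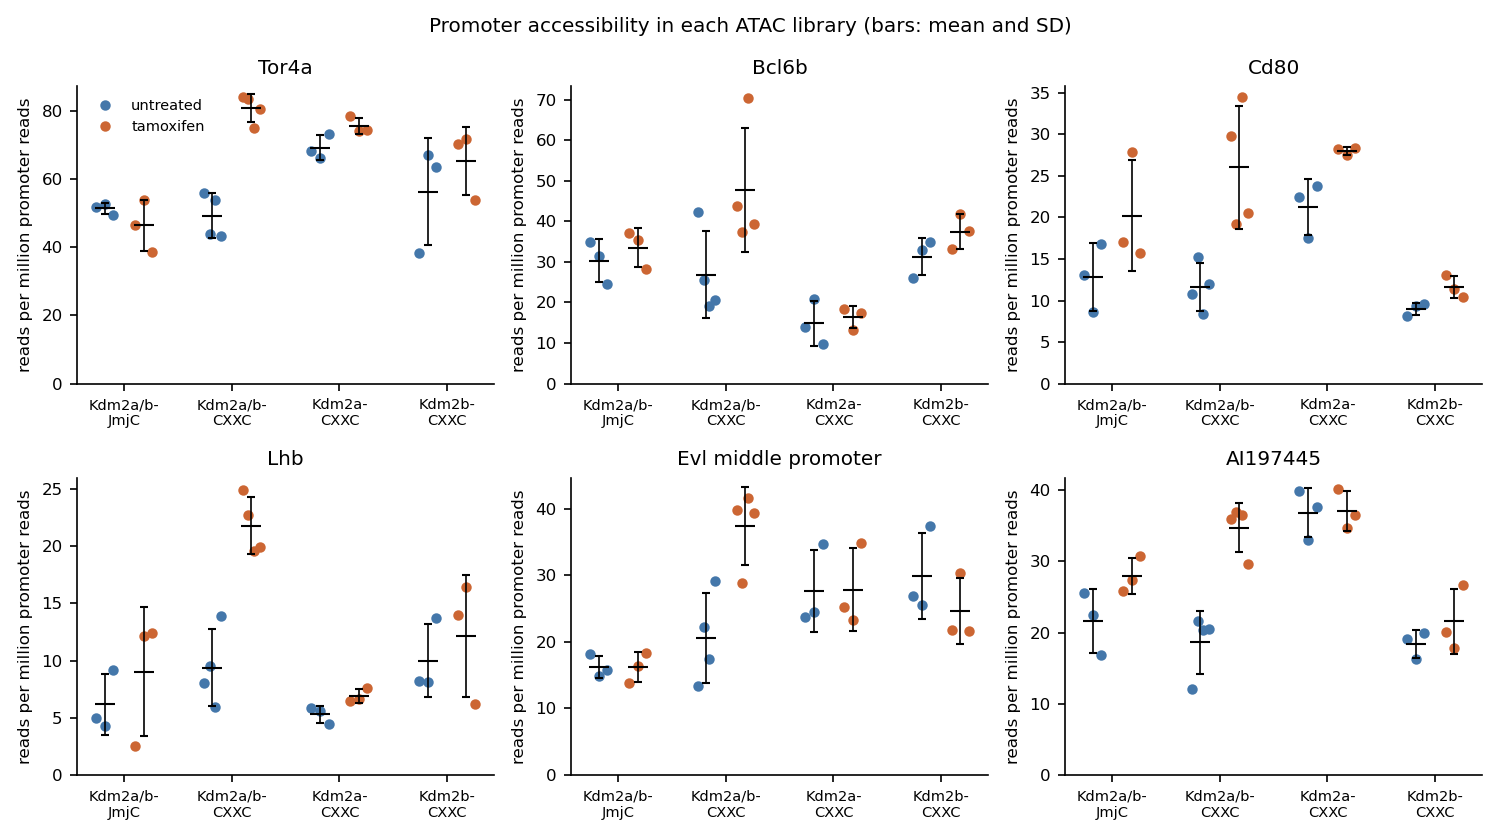
Accessibility of the 6 chosen promoters in each ATAC library, in reads per 1000000 promoter reads (y axis, from 0) by line (x axis). Points are libraries, and bars give the mean and SD; treated Kdm2a/b-CXXC libraries of Tor4a (74.9 to 84.0 rpm) stand clear of the untreated ones (43.1 to 55.8 rpm), while those of Bcl6b overlap.

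The 3 Evl promoters differed from each other. At its middle promoter the untreated Kdm2a/b-CXXC libraries were at 13.4, 22.3, 17.4 and 29.2 rpm and the treated ones at 39.8, 28.8, 41.7 and 39.3 rpm, which overlapped by the lowest treated and the highest untreated library. At the CpG-rich upstream promoter, about 51.0 kb away, the same libraries read 85.3, 87.2, 101 and 94.8 rpm untreated and 74.6, 74.4, 67.1 and 77.4 rpm treated. Here every treated library was below every untreated one, which was so for 2.66% of promoters tested in this line. The upstream mean was 73.4 ± 4.40 treated against 92.1 ± 7.28 rpm untreated (SD, n = 4 each), with a log2 fold change of −0.33 ± 0.12 (SE) and a limma adjusted p of 0.311, which did not pass. The downstream promoter, another 30.0 kb on, was nearly closed at 1.34 to 5.31 rpm in these 8 libraries, fell under the filter on low values in all 4 lines and was not tested.

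In the other lines neither of the more open Evl promoters moved beyond the spread of its libraries. The middle promoter had log2 fold changes of −0.01 (−0.61 to 0.59) in Kdm2a/b-JmjC, 0.01 (−0.41 to 0.43) in Kdm2a-CXXC and −0.27 (−0.68 to 0.13) in Kdm2b-CXXC, and was the only chosen promoter with a lower mean in Kdm2b-CXXC cells. It was at 13.9 to 18.3 rpm in the 6 Kdm2a/b-JmjC libraries and at 21.7 to 37.4 rpm in the 12 libraries of the other pair of lines. The upstream promoter had log2 fold changes of −0.17, −0.06 and −0.11 in the same order.

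**Figure D2:**
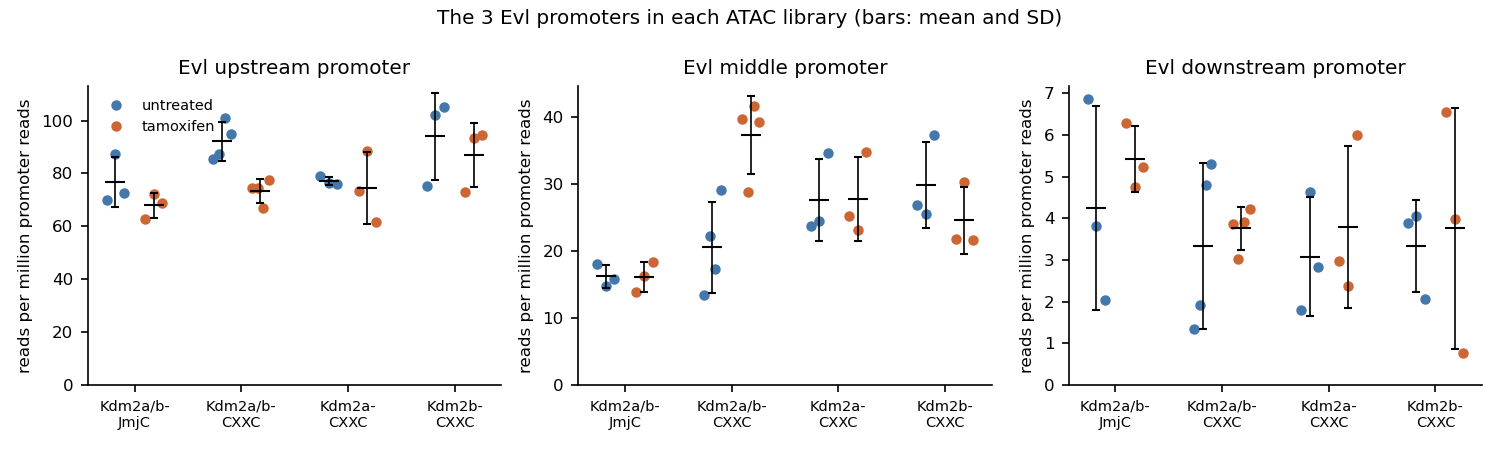
The 3 Evl promoters in each ATAC library, in reads per 1000000 promoter reads (y axis, from 0, separate scales) by line (x axis), with mean and SD as bars. In Kdm2a/b-CXXC cells treated libraries are lower at the upstream promoter (67.1 to 77.4 against 85.3 to 101 rpm) and higher at the middle one (28.8 to 41.7 against 13.4 to 29.2 rpm), and the downstream promoter stays at 0.775 to 6.87 rpm in all lines.

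Outside the line that chose them, log2 fold changes at the chosen promoters ran from −0.27 to 0.64, and some intervals were wide. The largest ratios of means in these other lines were 1.57 for Cd80 and 1.46 for Lhb, both in Kdm2a/b-JmjC cells. The 95% intervals of their log2 fold changes reached up to 1.27 and 1.29. In Kdm2a/b-CXXC, where limma on log2(rpm + 0.5) called 15 of 17077 promoters (0.0878%) at an adjusted p under 0.05 and over 1.4-fold, 4 of the 6 were called and AI197445 and the middle Evl promoter missed at an adjusted p of 0.0530, from which nothing is read because this contrast chose them. Every treated library was above every untreated one at 4 of the 6, against 2.24% of promoters tested, and nothing is read from this either, for the same reason. In the single-gene lines Kdm2a-CXXC and Kdm2b-CXXC and in Kdm2a/b-JmjC none of the 6 was called, with either limma or edgeR. Calls in those lines were as rare over all promoters, at 0% in Kdm2a/b-JmjC, 0% in Kdm2a-CXXC and 0.00593% in Kdm2b-CXXC of those tested. At an unadjusted limma p under 0.05, 1 of the 6 was higher in Kdm2a/b-JmjC, namely Cd80, against 2.92% of promoters, and 0 in Kdm2a-CXXC and Kdm2b-CXXC, against 3.17% and 3.64%. Every treated library was above every untreated one at 1 of 6 in Kdm2a/b-JmjC (AI197445, background 5.53%), 3 of 6 in Kdm2a-CXXC (Tor4a, Cd80 and Lhb, background 5.72%) and 1 of 6 in Kdm2b-CXXC (Cd80, background 6.13%).

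The direction was higher after treatment at 4 of 6 promoters in Kdm2a/b-JmjC, 6 of 6 in Kdm2a-CXXC and 5 of 6 in Kdm2b-CXXC, while 50.6%, 50.4% and 50.3% of all promoters tested were higher. The median log2 fold change of the 6 was 0.23, 0.16 and 0.23 in these lines. It was 0.90 in Kdm2a/b-CXXC, the line that chose them. Over all tested promoters the median was between −0.00480 and 0.00287 in the 4 lines. Among promoters that were not CpG-rich the median was 0.06 in Kdm2a/b-JmjC, 0.06 in Kdm2a-CXXC and 0.01 in Kdm2b-CXXC, and in Kdm2a/b-CXXC it was −0.01. Of this class, to which all 6 belong, 57.9%, 58.2% and 52.3% were higher in the first 3 of these lines and 48.7% in Kdm2a/b-CXXC. Every treated library was above every untreated one at 7.25%, 7.91% and 6.90% of the class in those 3 lines and at 2.44% in Kdm2a/b-CXXC. In Kdm2a/b-CXXC limma called 4 CpG-rich promoters, 0 of them higher. It called 11 of the class that was not CpG-rich, of which 4 were higher, so promoters called lower were in this class too. In Kdm2a/b-JmjC cells the class took 15.5% to 16.2% of promoter reads in untreated and 16.2% to 16.6% in treated libraries. In Kdm2a-CXXC cells it took 15.1% to 15.2% and 15.5% to 16.0%. The groups did not overlap in these lines, and overlapped in the remaining pair. With the spike-in scaling of the assay the median of the 6 was 0.99 in Kdm2a/b-CXXC, but none was called there, and calibrated totals of treated libraries were 1.64 ± 0.303 M against 1.52 ± 0.0580 M untreated (SD, n = 4 each). With that scaling the median of the 6 was 0.03 in Kdm2a/b-JmjC and −0.02 in Kdm2a-CXXC, where the medians of all promoters were −0.21 and −0.18. It was 0.32 in Kdm2b-CXXC. The median of all promoters was 0.10 in Kdm2b-CXXC and 0.09 in Kdm2a/b-CXXC. On that scale Cd80, AI197445 and Lhb still had higher means in Kdm2a/b-JmjC, with log2 fold changes of 0.43, 0.17 and 0.11, and Cd80, Lhb and Bcl6b in Kdm2a-CXXC, with 0.22, 0.19 and 0.01, and the other 3 of each line were lower, none of them called.

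**Figure D3:**
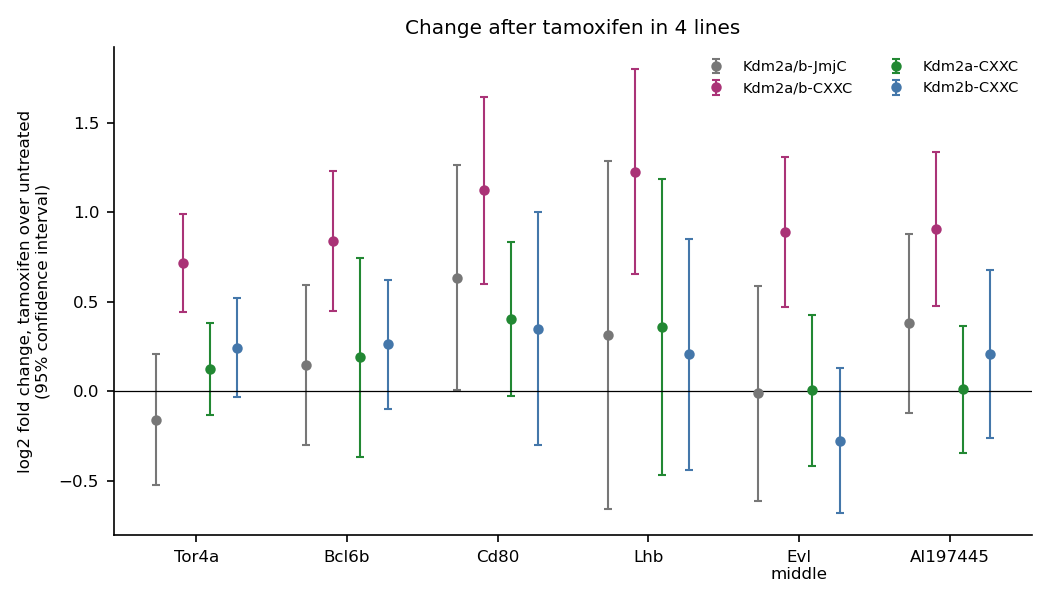
Log2 fold change of tamoxifen over untreated cells on the log2(rpm + 0.5) scale (y axis) for the 6 chosen promoters (x axis) in the 4 lines, with 95% confidence intervals as bars. The Kdm2a/b-CXXC values (0.72 to 1.23) chose the promoters; of the 18 intervals of the other lines, only that of Cd80 in Kdm2a/b-JmjC (0.01 to 1.27) lies above 0.

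The line in which a promoter was most open before treatment differed from gene to gene. The tables of the lines were normalised separately, and the order was read on the rpm scale. Untreated Cd80 was at 9.02 ± 0.731 rpm in Kdm2b-CXXC, 11.6 ± 2.87 in Kdm2a/b-CXXC, 12.9 ± 4.13 in Kdm2a/b-JmjC and 21.3 ± 3.32 in Kdm2a-CXXC (SD, n = 3, 4, 3 and 3). The first 3 did not differ beyond their spread, and each library of the last was above all of theirs. AI197445 was likewise highest in Kdm2a-CXXC, at 36.9 ± 3.50 rpm, against 18.4 ± 1.94 to 21.6 ± 4.44 rpm in the other lines, which overlapped. Bcl6b was lowest in Kdm2a-CXXC, at 14.8 ± 5.62 rpm, which overlapped with Kdm2a/b-CXXC, and lay at 26.9 ± 10.7 to 31.3 ± 4.58 rpm elsewhere. Untreated Tor4a ran from 49.2 ± 6.58 rpm in Kdm2a/b-CXXC to 69.2 ± 3.61 rpm in Kdm2a-CXXC, Lhb from 5.30 ± 0.748 rpm in Kdm2a-CXXC to 10.0 ± 3.20 rpm in Kdm2b-CXXC, and the middle Evl promoter from 16.3 ± 1.69 rpm in Kdm2a/b-JmjC to 29.9 ± 6.46 rpm in Kdm2b-CXXC, with neighbours in each order overlapping. The treated Kdm2a/b-CXXC mean of Tor4a, Bcl6b, Lhb and the middle Evl promoter was above every one of the 18 libraries of the other lines. Of these 18, 4 exceeded the treated mean of Cd80 and 4 that of AI197445. Below the lowest treated library were 18 of the 18 at Lhb, 17 at Tor4a, 16 at Bcl6b and 14 at the middle Evl promoter. These treated values chose the promoters, so nothing is read from their standing above other lines.

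The promoters around the chosen ones were read at 5 loci. The promoter nearest to each, of another gene, had log2 fold changes between −0.09 and 0.12 in Kdm2a/b-CXXC. These were Nelfb, 14.7 kb from Tor4a, 0610010K14Rik, 8.12 kb from Bcl6b, Adprh, 6.24 kb from Cd80, Ntf5, 7.25 kb from Lhb, Gm16596, 50.1 kb from the middle Evl promoter, and Zswim6, 420 kb from AI197445. The Adprh promoter read 45.9 ± 5.37 rpm treated and 45.6 ± 4.47 rpm untreated (SD, n = 4 each) beside the rise of Cd80. Within 250 kb there were 29 further promoters around Tor4a, 10 around Cd80, 32 around Lhb and 8 around the middle Evl promoter, with median log2 fold changes of −0.04, 0.05, 0.05 and −0.11 over those tested, and none around AI197445. Single neighbours ran from −0.24 to 0.70 around Tor4a, itself at 0.72, and from −0.28 to 0.26 around Cd80. They ran from −0.24 to 0.61 around Lhb and from −0.53 to 0.87 around the middle Evl promoter, itself at 0.89. The 0.70 was at Rnf224 and the 0.87 at an Eml1 promoter, and no neighbour was called.

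Around Bcl6b 18 of the 21 promoters tested were higher in treated Kdm2a/b-CXXC cells, with a median log2 fold change of 0.14. Single values ran from −0.17 to 1.21, at Asgr2. None of these promoters was called, and Bcl6b itself was at 0.84. Its 22 neighbours summed to 1354 to 1431 rpm in untreated and 1491 to 1587 rpm in treated libraries, a ratio of 1.10 without overlap. In Kdm2b-CXXC cells, which share the Kdm2b allele, 19 of 22 were higher and the sums were 1358 to 1406 and 1430 to 1525 rpm, again without overlap. The exact two-sided permutation p was 0.0286 in the first line and 0.1 in the second, the smallest that 4 against 4 and 3 against 3 libraries can give, and over the 20 neighbourhood sums tested the Benjamini-Hochberg adjusted p was 0.571 for both. With these numbers of libraries no result could have brought an adjusted p under 0.05. The sums around Lhb did not overlap in Kdm2b-CXXC cells either, at 1616 to 1681 and 1710 to 1782 rpm (ratio 1.05, exact p of 0.1), where 22 of 31 neighbours were higher, and they overlapped in the 3 other lines. The Bcl6b sums in Kdm2a/b-JmjC and Kdm2a-CXXC overlapped, with ratios of 1.04 and 1.02. Chromosome 11 as a whole took 11.42% to 11.64% of promoter reads in untreated and 11.67% to 11.82% in treated Kdm2b-CXXC cells, without overlap. In Kdm2a/b-CXXC cells it took 11.49% to 11.70% and 11.66% to 11.82%, which overlapped. Its mean share went from 11.25% to 11.35% in Kdm2a-CXXC and was 10.85% in both Kdm2a/b-JmjC groups. The part of the chromosome in the Bcl6b sums was not tested.

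**Figure D4:**
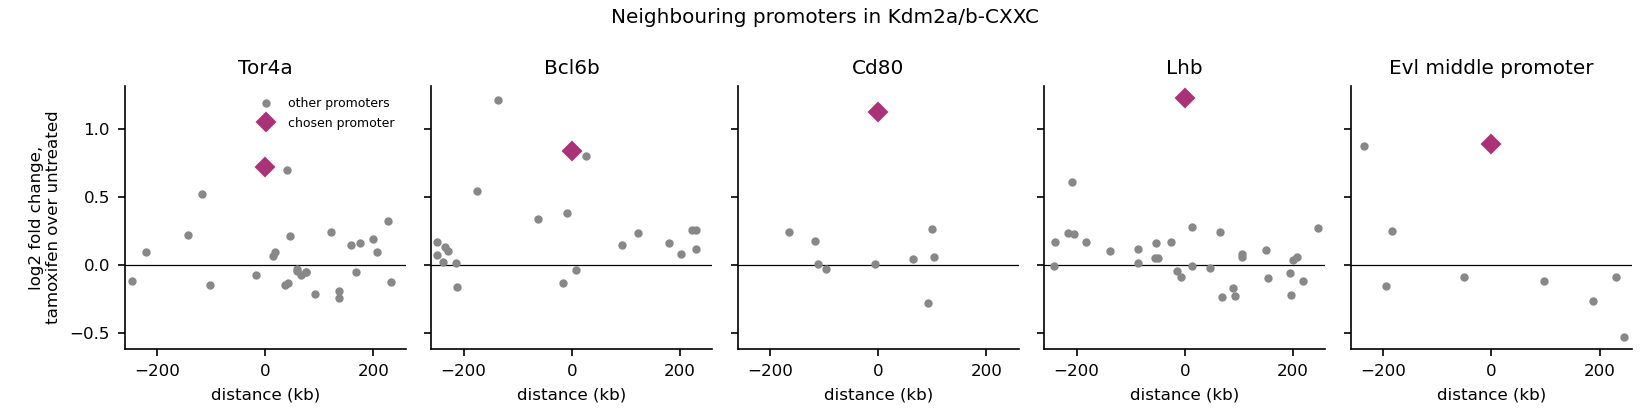
Log2 fold change of tamoxifen over untreated in Kdm2a/b-CXXC cells (y axis) of the promoters within 250 kb (grey) against their distance in kb (x axis) from the chosen promoter (diamond), for the 5 loci that have such neighbours. Medians of the neighbours run from −0.11 to 0.05 except around Bcl6b, where it is 0.14.

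No relative of the genes was called. Of 29 genes in 5 families (torsins and their cofactors, BCL6 and related BTB zinc fingers, B7 ligands and receptors, glycoprotein hormone subunits with the LH receptor Lhcgr, and Ena/VASP proteins with partners), 21 promoters were tested in Kdm2a/b-CXXC, where 8 were higher, 13 lower and 0 called by limma, and 4 had an unadjusted p under 0.05, against 9.49% of all promoters tested. The median was −0.12. The lowest were Zbtb7b, a zinc-finger factor of T cell development, at −0.88 ± 0.42, and Lhcgr at −0.65 ± 0.30, and the highest Vtcn1, a B7 family member, at 0.70 ± 0.42 and Gpha2, a glycoprotein hormone subunit, at 0.45 ± 0.16 (log2, SE). By family the medians were −0.03 for 7 torsin promoters, −0.33 for 5 of the BCL6 group, 0.12 for 3 of the B7 group, −0.10 for 2 hormone promoters and −0.17 for 4 of the Ena/VASP group. In the other lines 0 were called either, their medians were −0.04 in Kdm2a/b-JmjC, −0.05 in Kdm2a-CXXC and 0.06 in Kdm2b-CXXC, and 1 of 22, 1 of 20 and 5 of 22 had an unadjusted p under 0.05, against 5.68%, 6.19% and 7.75% of all promoters.

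Markers of other cell types were read beside these values. Summed promoters of the pituitary genes Pomc, Gh, Prl and Fshb were at 27.4 to 37.6 rpm in untreated and 23.8 to 43.0 rpm in treated Kdm2a/b-CXXC libraries, which overlapped. The pluripotency promoters summed to 485 to 590 and 462 to 538 rpm, with 3 of 9 higher and 0 called. At an unadjusted limma p under 0.05, 3 of the 9 were lower, against 9.49% of all promoters that passed it either way. These were Nanog (66.4 to 43.4 rpm, log2 −0.59 ± 0.16), Pou5f1 (42.7 to 30.8 rpm, −0.47 ± 0.18) and Tfcp2l1 (81.9 to 66.5 rpm, −0.31 ± 0.13, SE), with limma adjusted p of 0.105, 0.343 and 0.437. The 3 higher ones were Zfp42, Sox2 and Klf4, at 0.22 ± 0.12, 0.17 ± 0.11 and 0.07 ± 0.12 (log2, SE). Promoters of the lineage genes Gata4, Gata6, Sox17, T, Cdx2 and Neurog2 summed to 195 to 245 rpm untreated and 175 to 190 rpm treated without overlap, 5 of 6 having a lower mean, 1 an unadjusted p under 0.05 (Neurog2) and 0 called. Falls of pluripotency promoters at that p were also seen in other lines. There were 3 of 9 in Kdm2b-CXXC (Nanog, Tfcp2l1 and an Esrrb promoter), against 7.75% of all promoters either way. There was 1 of 9 in Kdm2a-CXXC (Pou5f1, against 6.19%) and 0 of 9 in Kdm2a/b-JmjC (against 5.68%). The part of these markers in the result was not tested.

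Tor4a had an adjusted p of 0.00645 in the fit that set the rule, on TMM-scaled reads with limma, and the other 5 shared 0.0428. The next were Iqcg at 0.0638, from 49.5 to 74.0 rpm, and Dnal4 and Cdk15, both at 0.0997, from 133 to 170 and from 38.1 to 58.1 rpm. In that fit the log2 fold changes of these 3 were 0.58, 0.36 and 0.62, each below the 0.72 to 1.22 of the chosen promoters. These are a description of where the threshold fell.

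Over the 26 libraries the promoters most like each chosen one on the log2(rpm + 0.5) scale, among 16156 searched, were Hspa4l and Fam83e for Tor4a (Pearson r of 0.72 and 0.71), Yipf2 and Tex14 for Bcl6b (0.82 and 0.82), and Prkcsh and Emp1 for Cd80 (0.83 and 0.79). For Lhb they were Actn4 and Tbc1d17 (0.77 and 0.76), for the middle Evl promoter Smagp and Id2 (0.74 and 0.74), and for AI197445 Elf1 and Kat7 (0.87 and 0.84). Likeness was read across libraries that share lines and treatments, and none of these 12 was a chosen promoter. Among the chosen promoters the 15 pairs had r between −0.30 and 0.78, so that even these 6 followed different orders across the lines.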

How the data were processed

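Chromatin accessibility was measured by ATAC-seq with Drosophila SG4 cells as spike-in in 26 libraries of 4 mESC lines. The deposited signal is the number of mouse reads per promoter that the authors divided by a spike-in size factor. Reads were aligned by the authors with Bowtie 2 to concatenated mm10 and dm6 genomes, multi-mapped reads and PCR duplicates were removed, and reads were counted over 20633 promoters of 400 bp. The matched genomic DNA libraries served to set the factors and were not used here. The deposited tables also hold the authors' DESeq2 mean, fold changes, statistics and p-values, which were not used.

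All rows of the 6 genes were followed (symbols matched 99.1% of identifiers). The steps between values gave back whole reads for 100% of values within a tolerance of 0.1 read, and 1.49 to 3.03 M promoter reads per library, with size factors of 0.718 to 1.41. Each library was scaled to its promoter total. Within each line, limma 3.58.1 with a mean-variance trend was fitted in R 4.3.3 to log2(rpm + 0.5) of promoters with a mean of at least 5 rpm, with Benjamini-Hochberg adjustment over all promoters tested. The log2 scale with a pseudocount understates changes at low values. A promoter was called at an adjusted p under 0.05 and over 1.4-fold. The members and lists were chosen with earlier results of these data known. Named besides the members were the nearest promoters, the 2 most alike, the 3 just outside the rule, fixed families and markers, and neighbours within 250 kb. The list of lymphoid and myeloid markers is not reported here. In the rule, limma was fitted to TMM-scaled reads after edgeR's filter on low reads.

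Alternatives were TMM, spike-in and median-of-ratios scaling, a pseudocount of 2, no filter, edgeR 4.0.16 on the recovered reads, a replicate block and leaving out each library. On simulated reads with 200 promoters changed 2-fold, limma recovered 83.1% in Kdm2a/b-CXXC with 5 false calls among 17114 promoters. Sums over neighbours were compared by exact permutation tests in SciPy 1.17.1. Sequence was read from GRCm38.p6, the same build as mm10, with samtools 1.23.1, and coordinates are 1-based. The RefSeq table held 6 of the 8 promoters. Reads carry no molecular identifiers, so counting error covers counting only.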

Additional observations from a re-analysis of the deposited data

Results flagged for a closer look

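The AI197445 promoter in Kdm2a/b-CXXC cells had 1 library far from the other 3 in each group. Among untreated libraries the one at 12.1 rpm was separated from the rest, at 20.4 to 21.7 rpm, by a gap of 0.864 of the whole range. Among treated libraries the one at 29.6 rpm was separated from the rest, at 35.9 to 36.9 rpm, by 0.865 of the range. The test for such gaps was applied to 8 promoters in the 2 groups of 4 libraries, and chance marks about 1 in 20 groups. Without the low untreated library the log2 fold change was 0.72, and without the low treated one 0.99, against 0.91 with all libraries. The cause was not tested.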

How the results depend on the processing

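The rise in Kdm2a/b-CXXC kept its direction at all 6 chosen promoters under every alternative run, and with all libraries the median log2 fold change was 0.85 to 0.99. These fits reuse the libraries that chose the promoters, so the kept direction and the calls are a description and no support for the rise. The number called was less stable. It was 4 on promoter totals, 6 with TMM or median-of-ratios scaling, a pseudocount of 2, edgeR or the replicate block, 1 without the filter (Tor4a) and 0 with spike-in scaling. Leaving out 1 library gave 0 to 3 calls, the 0 without treated replicate 2, and medians of 0.86 to 1.02; Tor4a was called in 7 of these 8 fits and each other promoter in at most 1. AI197445 and the middle Evl promoter were not called on promoter totals, at an adjusted p of 0.0530. The cause was not tested.

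In the other lines 0 members were called under any alternative. The median moved to 0.025 with spike-in scaling in Kdm2a/b-JmjC, and over fits without 1 library it was 0.041 to 0.26 there, 0.10 to 0.24 in Kdm2a-CXXC and 0.12 to 0.35 in Kdm2b-CXXC. It reversed to −0.024 with spike-in scaling in Kdm2a-CXXC. With that scaling Bcl6b turned to −0.064 in Kdm2a/b-JmjC, and in Kdm2a-CXXC Tor4a turned to −0.058, the middle Evl promoter to −0.18 and AI197445 to −0.17. Near 0, in Kdm2a-CXXC, the middle Evl promoter was at −0.0076 with TMM and −0.0031 with median-of-ratios scaling, and AI197445 at −0.0032 with TMM.

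Leaving out 1 library reversed the sign of some uncalled values. In Kdm2a/b-JmjC the middle Evl promoter ranged from −0.10 to 0.093 and Lhb from −0.040 to 1.01. In Kdm2a-CXXC the ranges were −0.17 to 0.18 for the middle Evl promoter, −0.20 to 0.065 for the upstream one, −0.064 to 0.071 for AI197445 and −0.069 to 0.46 for Bcl6b. In Kdm2b-CXXC they were −0.011 to 0.39 for Tor4a, −0.052 to 0.62 for Lhb and −0.26 to 0.014 for the upstream Evl promoter. Of 378 values of single promoters under alternatives, 357 kept their sign.

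Same-numbered untreated and treated libraries deviated from their group means with weak correlations of −0.01 to 0.07. In Kdm2a/b-JmjC these were 0.04 to 0.07, all above the −0.06 to 0.005 of differently numbered libraries. In the other lines the correlations of same-numbered and differently numbered libraries overlapped. Whether libraries of the same number were paired is therefore not settled, and the main fit used no pairs. The replicate block changed the count of chosen promoters called in Kdm2a/b-CXXC from 4 to 6 and left it at 0 in the other lines. Over all promoters tested in Kdm2a/b-CXXC it changed the calls from 15 to 23. Of the 6 chosen promoters depth limits Lhb most, at 4 to 45 reads per library.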
